A study of Mus musculus with 10 samples.

Results

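The genes described here are the classical cadherins and the protocadherins that lie outside the large protocadherin clusters. They were taken as every gene symbol made of Cdh or Pcdh and a number, apart from the endothelial cadherin Cdh5, and each gene was read from its brightest row over the arrays. The rule found 33 of the 30142 genes measured, 22 named Cdh and 11 named Pcdh, and each of the 33 had 1 row that named it alone. The rule is wider than the name of the family: Cdh13, Cdh16, Cdh17, Cdh23 and Cdh26 are cadherins but not classical ones, and Pcdh15 is a tip-link protein of the inner ear. Pcdh11x is a close relative that the pattern does not match, and it is described with the other relatives.

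The samples are mouse brain tissue collected on day 7 of a controlled cortical impact injury, which deforms the cortex on one side mechanically to a set depth, here 2 mm. The ipsilateral group (5 arrays) is tissue from the impact site, and the contralateral group (5 arrays) is the matching region of the other hemisphere. The mice were adults of 8 to 12 weeks, of both sexes per the labels, bought from a commercial breeder, and the labels give no strain, transgene or drug. Every mouse was injured, so the contralateral tissue is a control taken from injured animals, and no uninjured brain was measured. The labels do not say which arrays came from the same animal.

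Cadherins are calcium-dependent adhesion proteins of the cell surface. Type I and type II classical cadherins bind partners on the neighbouring cell through their outermost domain and hold the actin cytoskeleton through beta-catenin, p120-catenin and alpha-catenin inside the cell. Type II cadherins and the delta protocadherins are known in the brain for patterned expression, so that cortical areas, layers and hippocampal fields each carry their own combination, and for roles in sorting axons and in building synapses.

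Values are deposited log2 signals, on which a difference of 1 is a doubling. Array medians over all rows lay between 4.71 and 4.84, at 4.79 to 4.84 ipsilaterally and at 4.71 to 4.77 contralaterally. A mean at or below 4.84 is taken here as a level at which signal above background was not shown. The neuronal genes Snap25 and Syt1, which encode synaptic vesicle release proteins, averaged 18.18 and 17.44 ipsilaterally and 18.32 and 17.68 contralaterally. Several arrays stood apart in markers of neighbouring tissue. Ipsilateral array 1 had a mean of 9.18 over 7 measured olfactory bulb markers, a list composed after the value of Cdhr1 had been seen, against 5.89 to 6.11 on the other ipsilateral arrays and 5.41 to 5.74 contralaterally. On that array Th, the dopamine-synthesis enzyme, stood at 11.34 and at no more than 5.45 on any other array. The mean of 7 choroid plexus markers was 9.25 and 7.59 on ipsilateral arrays 2 and 4 and 9.95 and 7.16 on contralateral arrays 2 and 4, and between 5.49 and 6.06 on the other 6 arrays. Contralateral array 4 also had the highest mean over 6 thalamus markers, 7.11. The other contralateral arrays lay at 6.11 to 6.39 in that list, and the ipsilateral arrays at 6.25 to 6.59. Results for the members are therefore given with all arrays and, where these arrays change them, without them. Genes of the partner, relative and marker lists are given with all arrays only, and their calls without these arrays are not reported.

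The question was which cadherins and protocadherins differed between injured and opposite tissue. Cdh6, Cdh12, Cdh18 and Pcdh9 were lower ipsilaterally, and Pcdh17, Cdh9 and Cdh13 were higher. The largest differences were those of Cdh6, at -1.54 ± 0.29 (log2 fold change ± SE, n = 5 per side), Cdh12, at -1.15 ± 0.21, and Cdh13, at 1.06 ± 0.26. In the limma fit over all genes, with a Benjamini-Hochberg adjusted p under 0.05, 4 of the 33 genes (12.1%) were called lower, where 4.33% of all genes were, and 3 (9.09%) were called higher, where 1.22% of all genes were. Called either way were 7 of 33 (21.2%), where 5.55% of all genes were. These counts moved with the arrays used: with 1 array left out, 2 to 6 members were lower and 1 to 4 higher. Lower members numbered 2 without ipsilateral array 4 or 5 or contralateral array 1, 3 or 5, and higher members 1 without ipsilateral array 2, 3 or 5 or contralateral array 1, 2, 3 or 5. Without the arrays numbered 2 and 4, Pcdh17 alone passed (limma). Among genes with a mean above 4.84, the called share was 26.9% of 26 members and 8.87% of all such genes, 7.08% lower and 1.8% higher. The groups did not overlap for 6 members, 4 lower and 2 higher, where 7.25% of all genes separated, 5.21% lower and 2.04% higher. As deposited, 15 of the 33 members and 13227 of all 30142 genes had a lower ipsilateral mean, and 18 and 16915 a higher one. The median log2 fold change was 0.06 over the members and 0.02 over all genes, and the median absolute change was 0.38 over the members and 0.10 over all genes. A lower signal in a piece of tissue can mean fewer cells of a type or less RNA per cell, and these cannot be told apart here.

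**Figure D1:**
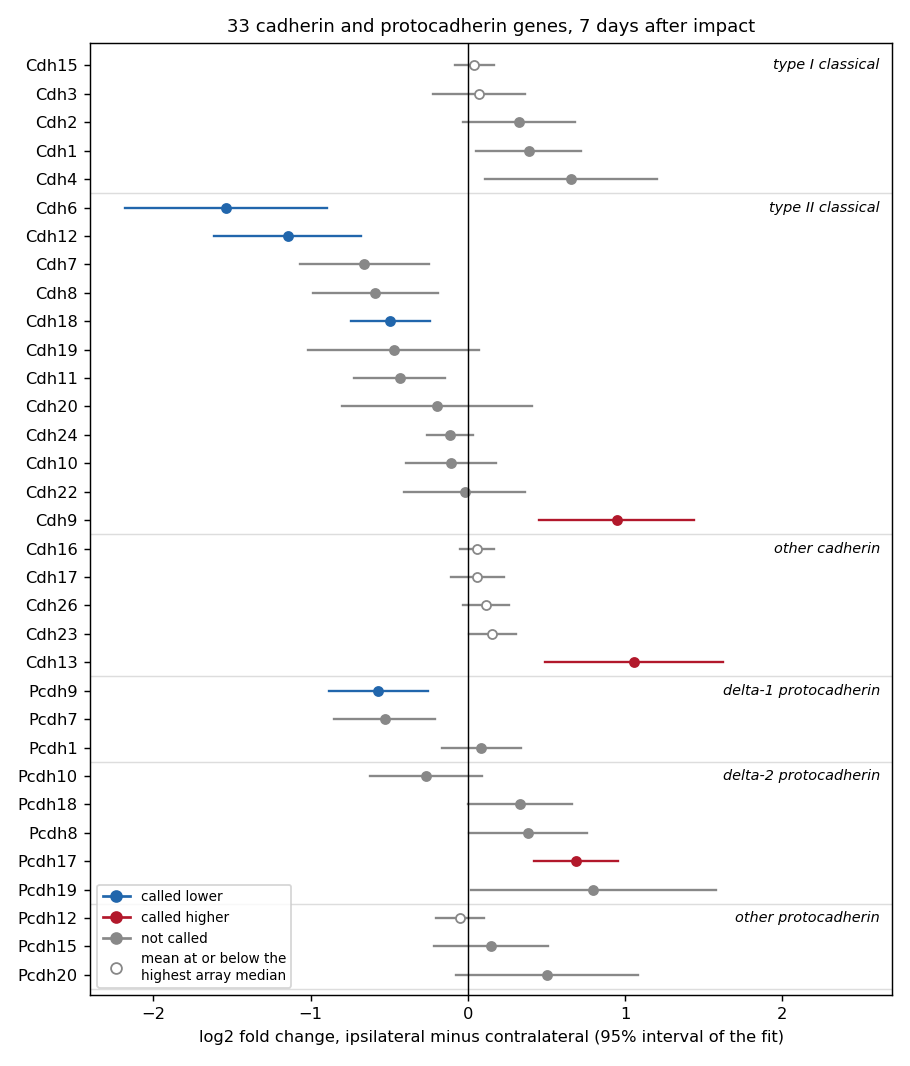
Log2 fold change, ipsilateral minus contralateral, of the 33 genes by family class, with the 95% interval of the limma fit over 5 arrays per side. Blue marks the 4 genes called lower, red the 3 called higher, and open circles the 7 genes whose mean lay at or below 4.84. Of the 12 type II cadherins 11 lie left of 0, with Cdh9 alone on the right; after cyclic loess Cdh22 also lies on the right.

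The balance of directions over the whole table moved with scaling. Rises made up 22% of all calls as deposited, 9.55% with each array centred on its median and 32.4% after cyclic loess. Over the same settings the members gave 4 lower and 3 higher, then 6 and 3, then 2 and 3. The sign of each of the 7 called members was the same under every setting tried.

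Type I cadherins gave no call. Of 5 members Cdh2, Cdh4 and Cdh1 were above 4.84, all 5 had a higher ipsilateral mean as deposited, as 16915 of the 30142 genes did, and none passed the test. The sign of Cdh15 turned under quantile scaling, median centring and cyclic loess. Cdh2, the N-cadherin of neural tissue and synaptic junctions, stood at 12.60, 13.11, 13.28, 13.06 and 13.19 on ipsilateral arrays 1 to 5 and at 12.48, 12.58, 12.71, 13.25 and 12.59 on the contralateral ones. Contralateral array 4 lay inside the ipsilateral range, and the difference was 0.33 with a 95% interval of -0.03 to 0.68 (adjusted p = 0.280, limma). Without ipsilateral array 1 and all arrays numbered 2 and 4, a setting added after the data were seen that left 2 ipsilateral and 3 contralateral arrays, Cdh2 differed by 0.64 and passed (adjusted p = 0.0461, limma).

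Cdh4, or R-cadherin, read 7.92, 7.19, 8.16, 7.30 and 6.99 ipsilaterally and 6.88, 6.52, 6.68, 7.49 and 6.71 contralaterally. These groups overlapped through contralateral array 4, which was higher than 3 of the ipsilateral arrays, and the difference of 0.66 (interval 0.11 to 1.20) did not pass over all genes (adjusted p = 0.156, limma). Cdh1, the E-cadherin of epithelia, had contralateral values of 5.11 to 5.21 and ipsilateral values of 5.21 to 6.13, the highest on array 5 (adjusted p = 0.171, limma). The placental cadherin Cdh3 and the muscle cadherin Cdh15 had means of 4.56 and 4.73 ipsilaterally and 4.49 and 4.69 contralaterally, where signal above background was not shown.

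The type II cadherins held 4 of the 7 calls. Of 12 members 3 were lower, 1 was higher and 8 did not pass, and 11 had a lower ipsilateral mean, 10 after cyclic loess, where Cdh22 turned. Over all genes 4.33% were called lower and 1.22% higher, and 13227 of 30142 had a lower ipsilateral mean as deposited. The median log2 fold change of the type II members was -0.45, against 0.02 over all genes. Cdh6, known for marking cortical areas and particular retinal circuits, read 9.96, 8.24, 8.68, 8.47 and 8.58 on ipsilateral arrays 1 to 5 and 10.82, 10.03, 10.32, 10.09 and 10.36 on contralateral arrays 1 to 5. Ipsilateral array 1 lay just under the lowest contralateral array, and the other 4 were far below. The mean was 2.90-fold lower (adjusted p = 0.0129, limma). It was -1.83 on the log2 scale without ipsilateral array 1 (adjusted p = 0.000765) and -1.43 without the arrays numbered 2 and 4, where the call ended (adjusted p = 0.136, limma). With all of these arrays left out together it was -1.87 (adjusted p = 0.0149, limma).

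Cdh12, a brain cadherin of neurons, read 11.35, 11.47, 11.39, 10.36 and 11.25 ipsilaterally and 12.55, 12.59, 11.91, 12.17 and 12.33 contralaterally. No ipsilateral array reached a contralateral one, and array 4 stood well under its own group. The mean was 2.21-fold lower (adjusted p = 0.0113, limma). The call held in each of the 10 fits that left out 1 array (adjusted p up to 0.0383) and did not hold with the arrays numbered 2 and 4 removed (-0.93, adjusted p = 0.0563, limma) or when ipsilateral array 1 was left out with them (-0.94, adjusted p = 0.0717, limma).

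Cdh18, another cadherin of central neurons, showed a smaller difference. It read 8.80, 8.39, 8.79, 8.73 and 8.65 ipsilaterally and 9.48, 8.88, 9.13, 9.14 and 9.20 contralaterally. The sides were separated by a narrow gap, between 8.80 and 8.88, and the difference was -0.49 ± 0.11 (adjusted p = 0.0310, limma). In limma this call ended without ipsilateral array 2 (adjusted p = 0.0610), 4 (0.0542) or 5 (0.0706), without contralateral array 1 (0.0653), 3 (0.0707), 4 (0.0532) or 5 (0.0741), without the arrays numbered 2 and 4 (0.0919), with ipsilateral array 1 left out as well (0.100), and under cyclic loess (0.0629).

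Cdh9 was the type II cadherin that rose. It is known for its place at the mossy fibre synapses of the hippocampus. Ipsilateral arrays 1 to 5 read 10.55, 11.67, 11.63, 10.73 and 11.08, and contralateral arrays 1 to 5 read 10.32, 10.42, 10.02, 10.34 and 9.83. Ipsilateral arrays 1 and 4 were only a little above the highest contralateral array, and arrays 2 and 3 more than 1 log2 unit above it. The difference was 0.95 ± 0.22 (adjusted p = 0.0351, limma), and it was 1.09 without ipsilateral array 1 (adjusted p = 0.0127). It did not pass without ipsilateral array 2 (adjusted p = 0.0702), 3 (0.0637) or 5 (0.0714), without contralateral array 1 (0.0723), 2 (0.0524), 3 (0.0934), 4 (0.0508) or 5 (0.0865), or without the arrays numbered 2 and 4 (1.03, adjusted p = 0.143, limma). With ipsilateral array 1 left out as well it passed (adjusted p = 0.0472, limma). Among 4 measured hippocampal markers none passed, and their mean ranged from 5.82 to 8.01 ipsilaterally and from 6.26 to 7.12 contralaterally. The part of hippocampal tissue in the Cdh9 difference was not tested.

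Several type II members came close to the threshold. Cdh7 read 8.71, 8.21, 9.08, 8.00 and 8.11 ipsilaterally against a tight 8.95 to 9.20 contralaterally, so that ipsilateral array 3 alone reached the contralateral range. Its difference of -0.66 had an adjusted p of 0.0672 (limma), and it passed without ipsilateral array 1 (0.0495) or 3 (-0.82, 0.00858). Cdh8, a cadherin of cortical and striatal circuits, read 9.08, 10.11, 9.58, 9.42 and 9.60 ipsilaterally and 9.95, 10.53, 10.28, 10.07 and 9.90 contralaterally. Only ipsilateral array 2 overlapped the other side, and without it the difference of -0.59 (adjusted p = 0.0883) became -0.73 and passed (adjusted p = 0.0302, limma). Cdh11, a cadherin of mesenchymal cells and neurons, ranged from 11.69 to 12.29 ipsilaterally and from 12.15 to 12.64 contralaterally (-0.43, adjusted p = 0.0854, limma) and passed when arrays were centred on their medians (adjusted p = 0.0425).

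The remaining type II cadherins showed differences that the fit could bound but not call. Cdh10 differed by -0.11 with a 95% interval of -0.39 to 0.18, and Cdh22 by -0.02 with an interval of -0.40 to 0.36. Cdh24, whose contralateral mean was 5.39, differed by -0.11 (interval -0.26 to 0.04). For Cdh19 and Cdh20 the intervals were wide, -1.02 to 0.07 and -0.80 to 0.41. Cdh20 ranged from 8.55 to 10.21 ipsilaterally, with array 5 above all contralateral arrays (9.10 to 9.67) and arrays 1, 3 and 4 below them.

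**Figure D2:**
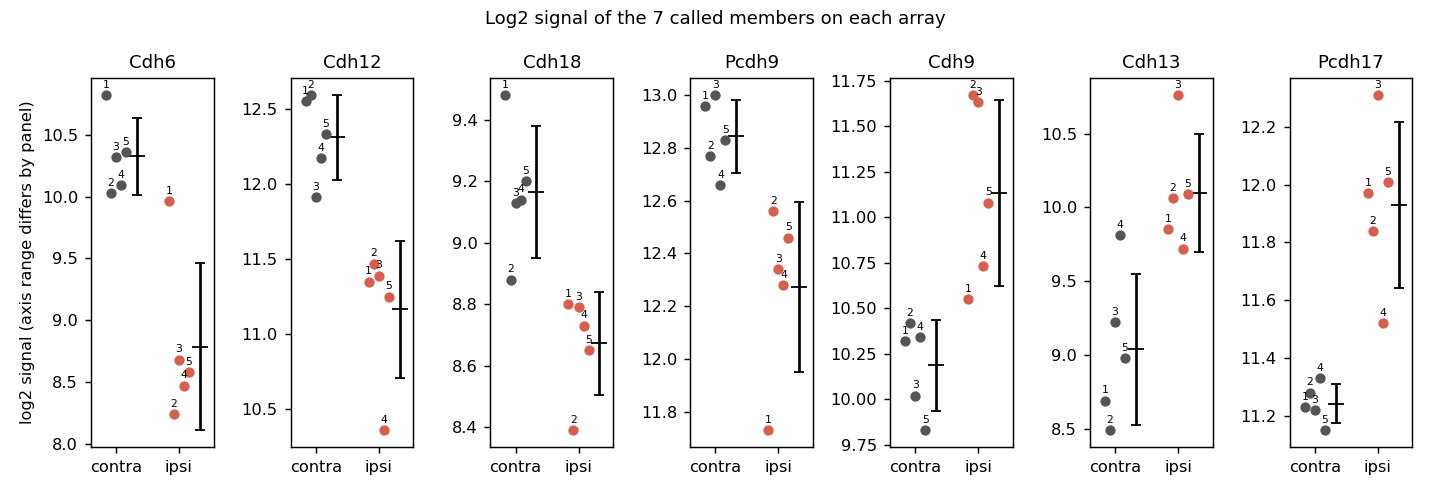
Log2 signal of the 7 called genes on each array, grey for contralateral and red for ipsilateral, with the replicate number beside each point and the mean ± SD (n = 5) as a bar. In 6 of the 7 panels no array of one side reaches the other; in Cdh13 contralateral array 4 (9.81) lies above ipsilateral array 4 (9.72). Vertical axes differ between panels.

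Among the cadherins outside the classical types, Cdh13 rose. This T-cadherin has a lipid anchor in place of the usual cytoplasmic tail, is found on neurons and vessels, and binds adiponectin. It read 9.85, 10.06, 10.76, 9.72 and 10.09 ipsilaterally and 8.69, 8.49, 9.22, 9.81 and 8.98 contralaterally. Contralateral array 4 alone lay inside the ipsilateral range, above ipsilateral array 4. The mean was 2.08-fold higher (adjusted p = 0.0383, limma), and 1.25 on the log2 scale without contralateral array 4 (adjusted p = 0.00977). The call ended without ipsilateral array 2 (adjusted p = 0.0736), 3 (0.0621) or 5 (0.0799), without contralateral array 1 (0.101), 2 (0.0795), 3 (0.0740) or 5 (0.0857), without the arrays numbered 2 and 4 (1.27, adjusted p = 0.0725, limma), and with p-values adjusted over every row of the table (0.0522). With ipsilateral array 1 left out as well it was 1.46 and passed (adjusted p = 0.0478). Of 7 endothelial markers, Cdh5 among them, none passed, and their mean was 8.64 to 9.19 ipsilaterally and 8.63 to 9.13 contralaterally.

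The other 4 members of this class were at or below 4.84 in mean on both sides. They were the kidney cadherin Cdh16, the intestinal cadherin Cdh17, the tip-link cadherin Cdh23 of the inner ear, and Cdh26. Their differences ran from 0.06 to 0.16, none passed, and the signs of Cdh16 and Cdh17 turned with median centring.

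Of the delta-1 protocadherins, which carry a long extracellular region and conserved cytoplasmic motifs, Pcdh9 fell and Pcdh7 came near. Pcdh9 read 11.73, 12.56, 12.34, 12.28 and 12.46 ipsilaterally and 12.96, 12.77, 13.00, 12.66 and 12.83 contralaterally. The groups did not overlap, and ipsilateral array 1 was the lowest of all. The difference was -0.57 ± 0.14 (adjusted p = 0.0440, limma). Without ipsilateral array 1 it was -0.43 and passed (adjusted p = 0.0180). The call ended without ipsilateral array 3 (adjusted p = 0.0654), 4 (0.0805) or 5 (0.0607), without contralateral array 1 (0.110), 2 (0.0742), 3 (0.112) or 5 (0.0907), without the arrays numbered 2 and 4 (-0.75, adjusted p = 0.130), and with ipsilateral array 1 left out too (-0.53, adjusted p = 0.0611, limma). With quantile scaling (adjusted p = 0.0739), cyclic loess (0.0855) or adjustment over every row (0.0645) it did not pass either.

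Pcdh7 read 11.97, 11.75, 12.31, 11.48 and 11.79 ipsilaterally and 12.69, 12.40, 12.27, 12.20 and 12.39 contralaterally. Ipsilateral array 3 was the only overlap, and without it the difference of -0.53 (adjusted p = 0.0621) became -0.64 and passed (adjusted p = 0.0166, limma). Pcdh1 differed by 0.09, with an interval of -0.17 to 0.34.

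Of 5 delta-2 protocadherins 1 rose and the other 4 did not pass, where 1.22% of all genes were called higher and 4.33% lower. Pcdh17, known for its role in synapses of the corticobasal ganglia pathways, read 11.97, 11.84, 12.31, 11.52 and 12.01 ipsilaterally and 11.23, 11.28, 11.22, 11.33 and 11.15 contralaterally. The contralateral arrays lay close together, and every ipsilateral array was above them. The difference was 0.69 ± 0.12 (adjusted p = 0.00921, limma). It was the single member to pass at 0.01 and passed in all 23 alternatives (0.59 to 0.96, adjusted p up to 0.0440, limma), among them those without ipsilateral array 1 (0.68) and without the arrays numbered 2 and 4 (0.90).

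Pcdh19, an X-linked gene whose variants cause epilepsy in people, had the largest difference of the genes that did not pass. It read 9.91, 11.75, 11.59, 10.85 and 11.15 ipsilaterally and 9.80, 9.83, 10.54, 11.05 and 10.05 contralaterally. Ipsilateral array 1 sat with the contralateral arrays and contralateral array 4 with the ipsilateral ones. The difference was 0.80 (adjusted p = 0.225, limma), and 1.08 without ipsilateral array 1, where it passed (adjusted p = 0.0454).

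Pcdh8, the activity-induced arcadlin, which binds N-cadherin, ranged from 7.68 to 8.35 ipsilaterally and from 7.36 to 8.06 contralaterally (0.38, adjusted p = 0.225, limma). Pcdh18 differed by 0.33 (interval -0.001 to 0.67), with its highest value, 6.90, on ipsilateral array 1. Pcdh10, the delta-2 member with a lower ipsilateral mean, read 12.66, 11.78, 12.30, 11.72 and 11.86 ipsilaterally against 12.28 to 12.35 contralaterally. Its difference of -0.27 (adjusted p = 0.389) was -0.42 without ipsilateral array 1 and then passed (adjusted p = 0.0476, limma).

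Of the last class, Pcdh20, Pcdh15 and Pcdh12, none passed. Pcdh20, which marks neurons of the middle cortical layers, read 8.78, 8.94, 7.93, 7.68 and 7.79 ipsilaterally and 7.99, 8.11, 7.62, 7.48 and 7.40 contralaterally. Ipsilateral arrays 1 and 2 were the highest, and the other 3 lay inside the contralateral range (0.50, adjusted p = 0.303, limma). Pcdh15 had its highest value on ipsilateral array 1 (7.58, against 6.61 to 7.01 on the other ipsilateral arrays), and the endothelial Pcdh12 averaged 4.40 and 4.45, where signal above background was not shown.

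**Figure D3:**
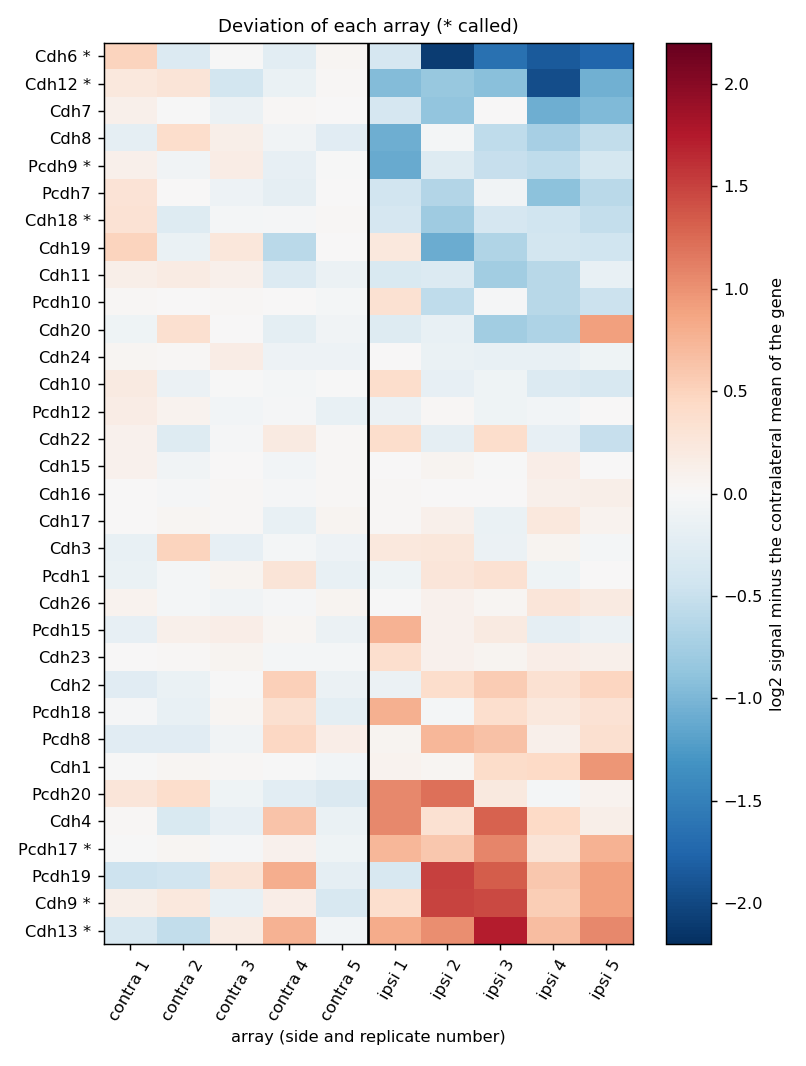
Log2 signal of the 33 genes on each array minus the contralateral mean of the gene, ordered by log2 fold change, with an asterisk on the 7 called genes. Red is above and blue below the contralateral mean. Ipsilateral array 1 is paler than the other ipsilateral arrays for Cdh6 and blue where they are red for Pcdh19, and contralateral array 4 is red for Cdh13, Pcdh19 and Cdh4.

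Neighbouring members on a chromosome did not all share a direction. Outside chromosomes 14 and 15, members with 0 protein-coding genes between them did share a direction, and none was called. Cdh7 and Cdh19, and Cdh8 and Cdh11, had lower ipsilateral means, and Cdh3 and Cdh1 higher ones. In the RefSeq gene order of GRCm38.p6, Cdh6, Cdh9, Cdh10 and Cdh12 follow each other on chromosome 15 with 0 protein-coding genes between them, and 1, Acot10, separates Cdh12 from Cdh18. Along this row the calls were lower, higher, none, lower and lower. On chromosome 14 Pcdh8, Pcdh17, Pcdh20 and Pcdh9 follow each other with few protein-coding genes between them, Olfm4 after Pcdh8 and Diaph3 and Tdrd3 after Pcdh17. In bases they lie far apart, with upstream sequences from chr14:79771313 for Pcdh8 to chr14:93890929 for Pcdh9. There Pcdh17 rose, Pcdh9 fell, and Pcdh8 and Pcdh20 did not pass.

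**Figure D4:**
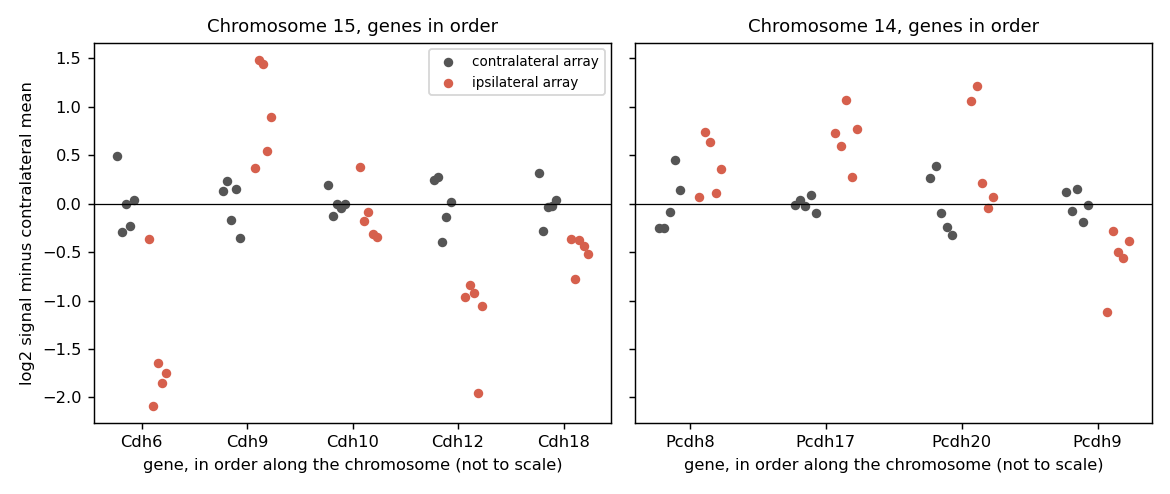
Log2 signal of each array minus the contralateral mean, for the cadherins of chromosome 15 and the protocadherins of chromosome 14 in chromosomal order, not to scale. Red ipsilateral points lie below the grey contralateral ones for Cdh6, Cdh12, Cdh18 and Pcdh9 and above them for Cdh9 and Pcdh17.

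The sequences just before the starts of these neighbours are shown because their transcripts moved in opposite directions. RefSeq windows (GRCm38.p6) matched 22 of the 33 members, 6 of the 7 called ones among them (Cdh13 is named only), and the 250 bases before the start are printed 5′ to 3′ on the strand of the gene, with CG dinucleotides in capitals. The chromosome 15 windows are Cdh6 at chr15:13173676-13173925 (minus strand), Cdh9 at chr15:16728665-16728914 and Cdh12 at chr15:21111202-21111451 (both plus strand), and those of chromosome 14 are Pcdh17 at chr14:84443313-84443562 (plus strand) and Pcdh9 at chr14:93890680-93890929 (minus strand, the first of its 2 windows).
Cdh6: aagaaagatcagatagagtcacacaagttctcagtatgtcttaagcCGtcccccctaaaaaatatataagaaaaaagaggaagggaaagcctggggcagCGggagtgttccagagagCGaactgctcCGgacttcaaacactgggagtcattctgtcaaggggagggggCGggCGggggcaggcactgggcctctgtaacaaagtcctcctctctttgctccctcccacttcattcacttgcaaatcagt
Cdh9: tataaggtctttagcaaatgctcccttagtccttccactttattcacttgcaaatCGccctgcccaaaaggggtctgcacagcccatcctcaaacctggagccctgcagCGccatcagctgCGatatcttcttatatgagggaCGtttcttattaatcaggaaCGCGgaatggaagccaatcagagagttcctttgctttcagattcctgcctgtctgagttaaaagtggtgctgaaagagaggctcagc
Cdh12: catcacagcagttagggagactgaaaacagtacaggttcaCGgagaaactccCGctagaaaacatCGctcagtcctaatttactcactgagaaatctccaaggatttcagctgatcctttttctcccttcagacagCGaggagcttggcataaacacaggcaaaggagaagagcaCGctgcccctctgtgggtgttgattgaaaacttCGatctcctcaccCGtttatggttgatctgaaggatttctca
Pcdh17: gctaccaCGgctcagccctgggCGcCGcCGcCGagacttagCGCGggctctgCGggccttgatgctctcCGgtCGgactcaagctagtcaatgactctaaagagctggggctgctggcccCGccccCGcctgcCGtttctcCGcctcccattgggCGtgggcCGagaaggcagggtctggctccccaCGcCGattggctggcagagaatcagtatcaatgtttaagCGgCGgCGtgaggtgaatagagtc
Pcdh9: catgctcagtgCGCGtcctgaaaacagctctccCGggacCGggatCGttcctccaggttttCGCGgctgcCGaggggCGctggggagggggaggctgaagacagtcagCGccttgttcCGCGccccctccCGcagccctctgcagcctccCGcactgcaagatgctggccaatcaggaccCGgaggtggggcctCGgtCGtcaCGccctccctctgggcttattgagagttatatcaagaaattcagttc

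The cadherin windows held 6 CG dinucleotides in Cdh6, 6 in Cdh9 and 7 in Cdh12, near the median of 6 over all 32851 windows, and the window of their neighbour Cdh18, not printed, held 8. The printed protocadherin windows held 21 in Pcdh17 and 18 in Pcdh9, counts that 16.3% and 21.7% of all windows reach or pass. Windows of the uncalled neighbours, not printed, held 11 in Pcdh8, 3 in Pcdh20 and 2 in Cdh10. Of all windows 35.6%, 71.0% and 81.2% reach or pass these counts, in that order. For the other cadherins, 50.4% of all windows hold at least 6, 46.3% at least 7 and 43.0% at least 8. Over the 296 pairs of member windows, searched on both strands, the longest shared run was 15 bases, and it was found for 2 pairs. For Cdh26 and Pcdh7 it was a simple repeat. The run shared by Cdh6 and Cdh9 begins 18 bases before the start of Cdh6 and 209 before that of Cdh9, and of all windows only these 2 hold it (0.00609%).
Shared run: attcacttgcaaatc

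The intracellular partners of the cadherins were measured as lists. Of 10 measured catenin and junction genes 3 fell and none rose, where 4.33% of all genes were called lower and 1.22% higher, and the list's median log2 fold change was 0.01, against 0.02 over all genes. Ctnna2, the neuronal alpha-catenin, read 11.36, 11.12, 11.39, 11.24 and 11.01 ipsilaterally and 11.54 to 11.75 contralaterally, so that the groups were apart, and it fell by 0.47 (adjusted p = 0.00917, limma). Ctnna3, another alpha-catenin, fell by 0.42 (adjusted p = 0.0377) and the p120-catenin gene Ctnnd1 by 0.31 (adjusted p = 0.0233, limma). Ctnnd2, the neural delta-catenin, was lower on every ipsilateral array (13.35 to 13.47 against 13.49 to 13.74) without passing (adjusted p = 0.0652, limma). Ctnnb1, which encodes beta-catenin, had no row that named it alone.

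Of 8 measured subunits of the WAVE complex, an actin regulator that several delta-2 protocadherins bind, Cyfip2 fell by 0.59 (adjusted p = 0.00456, limma) and the other 7 did not pass. The shares over all genes were 4.33% called lower and 1.22% called higher. None of 6 measured genes of cadherin cleavage and turnover passed. In that list the membrane protease gene Adam9 had the largest statistic, with a difference of -0.30 (adjusted p = 0.0834, limma).

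Other members of the cadherin superfamily were mostly not called. Of 17 measured, 2 fell, where 4.33% of all genes were called lower and 1.22% higher. They were the calsyntenins Clstn1 (-0.73, adjusted p = 0.00197, limma) and Clstn3 (-0.55, adjusted p = 0.00292, limma), which are synaptic adhesion proteins. The groups did not overlap for these 2 and for 3 ipsilaterally higher genes that did not pass. Of all genes 5.21% separated lower and 2.04% higher. The 3 were Fat1 (0.59, adjusted p = 0.198), Dchs1 (0.33, 0.0694) and Cdhr1 (2.30, 0.214, limma). Pcdh11x, the delta-1 gene outside the rule, differed by -0.28 (adjusted p = 0.432). Cdhr1, a protocadherin-like gene of photoreceptors and of mitral cells of the olfactory bulb, read 12.30 on ipsilateral array 1, 6.42 to 7.31 on the other ipsilateral arrays and 5.29 to 6.34 contralaterally. Of 10 desmosome genes none passed, with Dsc3 at 1.79 (adjusted p = 0.188). Of 20 clustered protocadherins with a row of their own, all of the beta cluster, Pcdhb5 fell, from 6.95 ± 0.21 to 6.32 ± 0.26 (mean ± SD, n = 5), and the other 19 did not pass. That is 1 of 20, near the 4.33% of all genes called lower. Genes of that cluster are similar in sequence, and their signals may be shared between neighbours.

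Markers of cell types and regions also differed between the sides, and their counts stand beside 4.33% of all genes called lower and 1.22% called higher. Of 5 measured upper-layer cortical genes 4 fell (Cux1, Cux2, Rorb and Pou3f2), and their mean was 8.83 to 9.05 ipsilaterally and 9.57 to 9.92 contralaterally. Among 5 deep-layer genes Bcl11b rose, and the list mean overlapped. Of 7 neuronal genes 3 fell, Rbfox3 and the neurofilament genes Nefl and Nefm (13.55 to 14.02 against 14.03 to 14.25), and of 6 interneuron genes 2 fell, Pvalb and Vip (10.65 to 11.60 against 11.10 to 11.65). Of 8 meningeal and fibroblast genes 4 rose, Col1a1, Dcn, Crabp2 and Aldh1a2 (7.10 to 8.53 against 6.09 to 6.89). Of 8 astrocyte genes 1 rose, Aqp4, with list means of 10.12 to 11.11 and 9.94 to 10.31.

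No marker passed among 7 for oligodendrocytes (9.50 to 10.66 against 9.90 to 11.25), 8 for microglia and macrophages (8.62 to 10.82 against 8.19 to 8.94, all 8 with a higher ipsilateral mean), 6 for striatum (7.18 to 8.49 against 6.94 to 7.28), 6 for thalamus, 4 for pericytes, 4 for oligodendrocyte precursors or 7 for choroid plexus. The genes with the largest statistic in these lists were Mog (-1.32, adjusted p = 0.0537), C1qb (1.83, 0.0580), Penk (1.22, 0.0589), Tcf7l2 (0.32, 0.298), Anpep (0.46, 0.192), Vcan (0.16, 0.332) and Kcnj13 (1.04, 0.711), in that order, by limma. Among the hippocampal and endothelial markers they were Fibcd1 (0.95, adjusted p = 0.136) and Flt1 (-0.36, 0.108, limma). A log2 signal has no true 0, so no marker could be read as absent. The part of cell composition, and of the piece of tissue taken, in the cadherin and protocadherin differences was not tested.

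**Figure D5:**
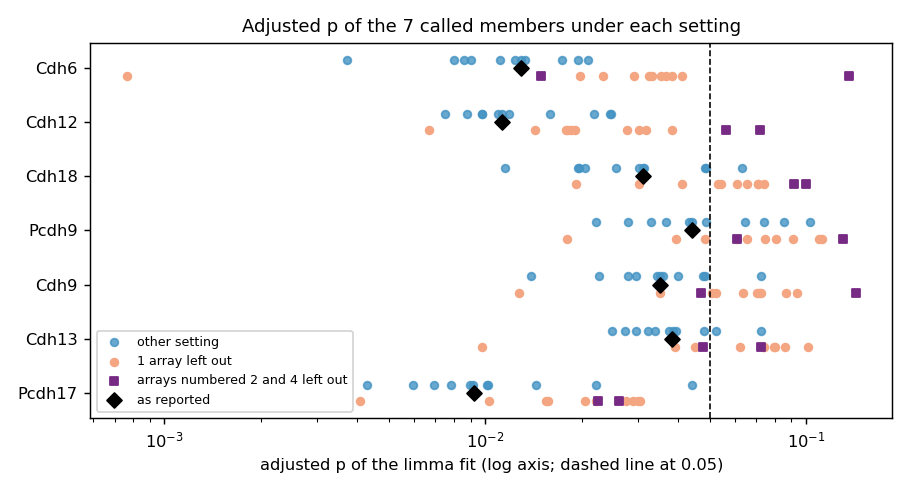
Adjusted p of the limma fit for the 7 called genes on a log axis, as reported (diamond), with 1 array left out (orange), with the arrays numbered 2 and 4 left out, alone or together with ipsilateral array 1 (squares), and under the other settings (blue); the dashed line is 0.05. Pcdh17 stays left of the line throughout, Cdh6 and Cdh12 cross it with arrays 2 and 4 left out, and Cdh12 also does when ipsilateral array 1 is left out with them. Cdh18, Pcdh9, Cdh9 and Cdh13 cross it in most of the 10 fits that leave out 1 array. Cdh18, Pcdh9 and Cdh13 stay left of it in 3 of these fits each, and Cdh9 in 2.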

How the data were processed

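Signals of 10 arrays, 5 per side, were used as the authors deposited them, on a log2 scale read from the values (1.97 to 19.93). The submitters' processing notes name the software Transcriptome Analysis Console 4.0. Background correction, normalization and genome build are not given in the sources used here, and no batch or scan date was given. All columns were mapped to samples by label. Of 65956 rows, 30604 named 1 gene, and the brightest row per gene left 30142 genes. Symbols were updated through RefSeq (GRCm38.p6).

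Sides were compared in limma 3.58.1 (R 4.3.3; lmFit, eBayes, no covariates, two-sided, Benjamini-Hochberg over all genes), tested on simulated data. Members and lists were chosen with earlier results of these data known. Named with every array were genes called, genes whose groups were apart, and genes with an absolute change of at least 0.5; of the other lists, called genes or, where none was, the one with the largest statistic. Ctnnd2, Cdhr1, Fat1, Dchs1, Pcdh11x and members that passed in any alternative, or showed an array that stood apart, were named after their values were seen. Same-numbered arrays did not deviate together for all numbers (correlations -0.40 to 0.26), so numbers were not taken as pairs. Choroid plexus markers were nevertheless high on arrays 2 and 4 of both sides, so whether same-numbered arrays share an animal is not known. A fit with the replicate number as a block, which changed some calls, is given in the last section. The labels call arrays biological replicates without naming the animals. The p-values set the difference between the sides against the spread among arrays of the same side, with the arrays taken as unpaired. The number of arrays limits the precision.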

Additional observations from a re-analysis of the deposited data

Results flagged for a closer look

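In 66 groups of 5 arrays, 1 array stood far from the other 4 in 6 cases, judged by its gap to the nearest over the range, where chance gives about 1 in 20. Cdh12 was 10.36 on ipsilateral array 4, against 11.25 to 11.47 on the others, and Cdh6 was 9.96 on ipsilateral array 1, against 8.24 to 8.68. Pcdh10 was 12.28 on contralateral array 5, against 12.33 to 12.35, a gap of small size. The remaining 3 cases were genes at or below 4.84 in mean: Cdh23 at 4.85 on ipsilateral array 1, Cdh3 at 4.98 on contralateral array 2 and Cdh17 at 4.00 on contralateral array 4.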

How the results depend on the processing

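The 16 members that were called, or that passed in an alternative, or that differed by at least 0.5, kept their sign in every alternative. As reported, 4 members were lower and 3 higher, and 1305 and 369 of all genes. With 1 array left out, 2 to 6 members were lower and 1 to 4 higher, and 740 to 1607 and 111 to 760 of all genes. Lower members fell to 2 without ipsilateral array 4 or 5 or contralateral array 1, 3 or 5, and higher members to 1 without ipsilateral array 2, 3 or 5 or contralateral array 1, 2, 3 or 5; the most genes were called without ipsilateral array 1 and the fewest without contralateral array 1. A fit with replicate number as a block gave 1 member higher (4 lower), and 769 genes lower and 177 higher; Cdh9 (adjusted p = 0.0724), Cdh13 (0.0721) and Pcdh9 (0.103) did not pass with this replicate block, and Cdh8 did (0.0311). Arrays did not correlate best with their own number in 4 of 5 cases. Cyclic loess left 2 members lower. Median centring gave 2130 lower and 225 higher genes, and array weights 656 higher. At a threshold of 0.01, 0 members were lower and 1 higher, with 537 and 47 genes (limma). An unadjusted p under 0.05 was reached by 16 of the 33 members and by 21.3% of all genes (limma). Without the arrays numbered 2 and 4, 0 members were lower and 1 higher, with 289 and 77 genes, and with ipsilateral array 1 left out as well 1 member was lower and 4 higher, Cdh2 among them, with 416 and 259 genes. A dim gene at or below 4.84 can hide a difference, since signal above background was not shown there.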
